A study of Mus musculus with 6 samples.

Results

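The genes described here were the 8 genes of MHC class II antigen presentation, *Cd74*, *H2-Aa*, *H2-Ab1*, *H2-Eb1*, *H2-DMa*, *H2-DMb1*, *H2-DMb2* and *Ciita*, measured by RNA-seq in mouse muscle. They were found by symbol among the 53084 genes of the count table, and all 8 were among the 15075 genes with enough reads to be tested. The set was chosen on measured values, because *Cd74* and *H2-Eb1* were already known to be among the genes with the smallest p lower in muscle without *Tarsl2*. Its levels and fold changes are therefore a description, and no test is given for them.

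The study deleted *Tarsl2*, which encodes a threonyl-tRNA synthetase-like protein, and compared the muscle of 3 *Tarsl2*-/- mice with that of 3 *Tarsl2*+/+ mice. All 6 were C57BL/6 males, 6 weeks of age, born under specific pathogen-free conditions and given standard chow, and each gave 1 library. The deletion removed exon 3 and was made by CRISPR/Cas9 in C57BL/6J zygotes with a pair of guide RNAs flanking that exon, so it is present in every cell of the animal. The labels do not say which muscle was taken, whether littermates were used or whether the mice came from 1 founder.

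The *Tarsl2*+/+ mice 583, 584 and 595 had 456, 605 and 464 reads on *Tarsl2*, and the *Tarsl2*-/- mice 588, 589 and 591 had 40, 30 and 37, so the libraries followed their labels. Libraries held between 16176591 and 20123767 counted reads. The labels' extraction text speaks of retina, but 10 retinal markers reached no more than 7 reads in any library, while skeletal muscle markers such as *Ckm* and *Acta1* were abundant. *Tarsl2*+/+ mouse 583 stood apart in markers of blood-borne leukocytes: its summed level was 79.4 CPM (reads scaled to the size of the library after TMM normalization, which trims the genes that differ most between libraries) for 10 neutrophil genes and 35.7 for 11 T cell genes, against at most 27.0 and 12.1 in the other libraries. Calls that were lost without this mouse, or without others, are named beside them.

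MHC class II molecules are surface proteins that show peptides from engulfed material to CD4+ T cells. They are made mainly by macrophages, dendritic cells and B cells, so in muscle their mRNA comes largely from leukocytes that lie between the fibres. An α chain and a β chain pair in the endoplasmic reticulum around the invariant chain, cathepsins then trim the invariant chain, and H2-DM exchanges its last fragment for a peptide. Transcription of the whole set depends on CIITA, a coactivator that binds no DNA itself but docks on RFX, CREB and NF-Y proteins assembled on the X and Y boxes of class II promoters. C57BL/6 mice carry the H2-b haplotype, in which the α chain of I-E is not made, so I-A, built from H2-Aa and H2-Ab1, is their only classical class II molecule on the cell surface.

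Letters of these boxes were searched for in the promoters of a part of the set. RefSeq promoters (GRCm38.p6) were found for 5 of the 8 genes, and for 4 of them the start lay within 5 kb of the gene start in the count table. *H2-Ab1* and *Ciita* had no entry. *Cd74* was left out of the search, so its promoter was not examined. The windows below run 5′ to 3′ on the coding strand from 140 to 31 bases before the RefSeq start, and capitals mark ACNNATG, a core of the X box, and ATTGG or its complement CCAAT, the NF-Y letters of the Y box. They are shown because CIITA-dependent promoters are known for this pair of motifs, and *H2-Ob*, a β chain outside the 8, is added for comparison.
*H2-Eb1*, chr17:34305727-34305836, + strand: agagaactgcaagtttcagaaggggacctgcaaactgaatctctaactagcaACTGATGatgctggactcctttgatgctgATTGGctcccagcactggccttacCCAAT
*H2-DMb1*, chr17:34153051-34153160, + strand: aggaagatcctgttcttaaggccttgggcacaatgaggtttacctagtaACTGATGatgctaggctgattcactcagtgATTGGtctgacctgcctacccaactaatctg
*H2-DMb2*, chr17:34145109-34145218, + strand: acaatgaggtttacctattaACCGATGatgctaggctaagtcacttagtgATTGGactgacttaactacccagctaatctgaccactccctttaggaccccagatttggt
*H2-Aa*, chr17:34287854-34287963, - strand: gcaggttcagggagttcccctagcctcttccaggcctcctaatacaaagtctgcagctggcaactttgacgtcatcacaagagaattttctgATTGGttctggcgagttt
*H2-Ob*, chr17:34238765-34238874, + strand: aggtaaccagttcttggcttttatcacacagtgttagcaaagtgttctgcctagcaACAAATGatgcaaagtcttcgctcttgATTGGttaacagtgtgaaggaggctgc

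ACNNATG followed by ATTGG occurred in 3 of these 4 genes of the set, *H2-Eb1*, *H2-DMb1* and *H2-DMb2*, with 22, 23 and 23 bases between the motifs. *H2-Ob* had the same order with 20 bases between them. *H2-Aa* held ATTGG, 48 bases before its start, but not ACNNATG. An X box written in other letters would not be found by this search, so *H2-Aa* may still have one. Within 300 bases around the start, ACNNATG followed within 40 bases by ATTGG on the coding strand was found in 0.685% of 32851 mouse promoters, whereas ACNNATG, with or without it, was found in 5591 of them and CCAAT on either strand in 37.4%. The RefSeq starts of *H2-DMb1* and *H2-DMb2* lay 119 and 1942 bases inside the gene starts of the count table. A match of letters is a description and was not measured as binding here.

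The mean mRNA levels of the class II chains, the invariant chain and the transactivator were all lower in *Tarsl2*-/- muscle. The 8 genes together had 322.5, 256.1 and 304.7 CPM in the *Tarsl2*+/+ mice 583, 584 and 595, and 123.0, 110.6 and 145.1 CPM in the *Tarsl2*-/- mice 588, 589 and 591. The sum was 294.4 ± 34.4 CPM (SD, n = 3) in *Tarsl2*+/+ and 126.2 ± 17.5 CPM (SD, n = 3) in *Tarsl2*-/- muscle, a ratio of 0.429, and the genotypes did not overlap. In bulk muscle, fewer cells that express these genes and less mRNA per cell cannot be told apart.

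*Cd74* (ENSMUSG00000024610, chr18:60803848-60812646, + strand, mm10) encodes the invariant chain, which blocks the peptide groove and guides class II molecules to endosomes. Its level was 92.0, 85.9 and 91.6 CPM in the *Tarsl2*+/+ mice 583, 584 and 595, and 39.6, 32.3 and 42.0 CPM in the *Tarsl2*-/- mice 588, 589 and 591. All *Tarsl2*-/- mice lay below all *Tarsl2*+/+ mice, with little spread within a genotype. On the log2 scale *Tarsl2*-/- muscle differed from *Tarsl2*+/+ muscle by -1.24 (standard error 0.104), a mean level of 42.3%. Leaving out single libraries gave values from -1.32 to -1.14.

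The classical chains followed it closely. *H2-Aa* (ENSMUSG00000036594, chr17:34282744-34287827, - strand), the α chain of I-A, had 62.0, 50.2 and 60.1 CPM in the *Tarsl2*+/+ and 25.6, 18.8 and 28.3 CPM in the *Tarsl2*-/- mice, in the same order. *H2-Ab1* (ENSMUSG00000073421, chr17:34263209-34269418, + strand), the β chain that pairs with it, had 75.8, 51.4 and 64.9 CPM against 25.0, 24.6 and 32.0 CPM. *H2-Eb1* (ENSMUSG00000060586, chr17:34305877-34316199, + strand), the β chain of I-E, had 66.5, 52.7 and 65.5 CPM against 22.1, 24.0 and 29.3 CPM. For each chain the genotypes were separate, mouse 584 was the lowest of the *Tarsl2*+/+ mice and mouse 591 the highest of the *Tarsl2*-/- mice. The log2 fold changes were -1.24 (standard error 0.141) for *H2-Aa*, -1.23 (0.147) for *H2-Ab1* and -1.29 (0.126) for *H2-Eb1*. The lowest and highest values with 1 library left out were -1.42 for *H2-Eb1* and -1.09 for *H2-Aa*. *H2-Eb1* was thus lower along with the I-A chains, although its own partner chain is not made in this strain and the pseudogene *H2-Ea-ps* had no reads in any library.

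The proportions among these 4 genes were compared next. For each read of *H2-Ab1*, *H2-Aa* gave between 0.818 and 0.977 reads in *Tarsl2*+/+ and between 0.765 and 1.02 reads in *Tarsl2*-/- mice, and *H2-Eb1* between 0.878 and 1.03 against between 0.884 and 0.975. *Cd74* made up between 28.5% and 33.6% of the summed CPM of the 8 genes in *Tarsl2*+/+ and between 28.9% and 32.2% in *Tarsl2*-/- mice. The ranges of the genotypes overlapped for each of these proportions. Over the 6 libraries, Pearson's r of log2 CPM between pairs of these 4 genes was between 0.968 and 0.991, which includes the difference between genotypes. After each genotype's mean was taken away, r was 0.975 for *Cd74* with *H2-Aa* and 0.925 for *H2-Ab1* with *H2-Eb1*, but 0.489 for *Cd74* with *H2-Eb1*.

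**Figure D1:**
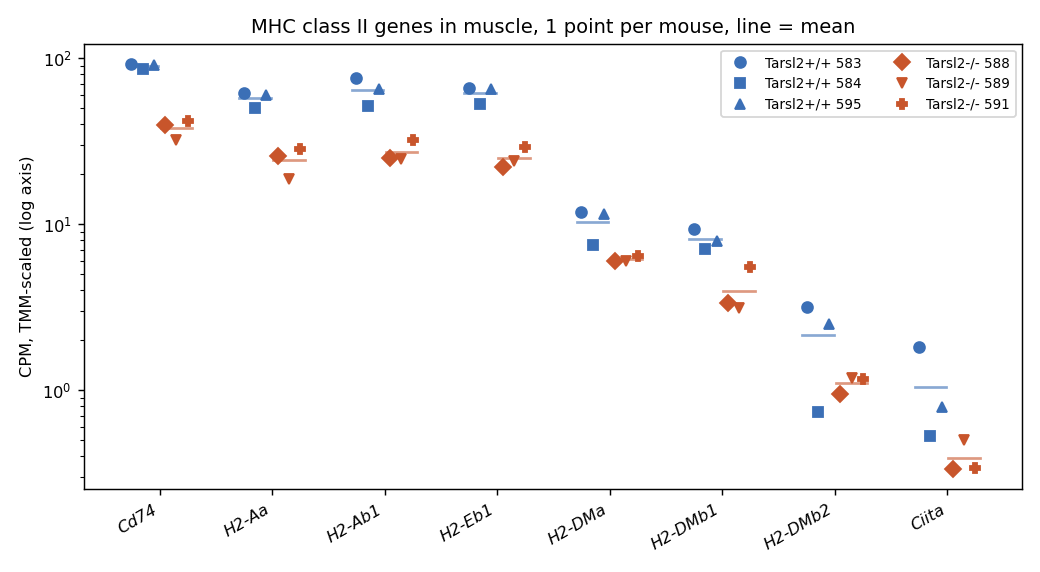
Level of the 8 class II genes in each mouse, in TMM-scaled CPM on a log axis, with *Tarsl2*+/+ mice in blue, *Tarsl2*-/- mice in orange and a line at each group's mean. The genotypes are separate for every gene but *H2-DMb2*, in which *Tarsl2*+/+ mouse 584, at 0.744 CPM, lies below the 3 *Tarsl2*-/- mice.

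The H2-DM genes, whose products load the peptide, were also lower, and *H2-DMa* by a smaller factor than the classical chains. *H2-DMa* (ENSMUSG00000037649, chr17:34135182-34139101, + strand), the α chain, had 11.9, 7.54 and 11.5 CPM in the *Tarsl2*+/+ mice and 5.97, 5.99 and 6.46 CPM in the *Tarsl2*-/- mice. *H2-DMb1* (ENSMUSG00000079547, chr17:34153072-34160230, + strand), the main β chain, had 9.41, 7.12 and 7.93 CPM against 3.35, 3.12 and 5.49 CPM. The genotypes did not overlap in either gene, and the gap between the closest mice was narrower than for the classical chains. The log2 difference was -0.74 for *H2-DMa* (standard error 0.176), or 59.6% of the *Tarsl2*+/+ level, and -1.02 for *H2-DMb1* (0.217), or 48.9%. With 1 library left out, *H2-DMa* ranged from -0.92 to -0.64. *H2-DMb1* ranged from -1.33 to -0.87, which overlapped the range of the classical chains.

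*H2-DMa* was also set against the other chains read for read. It gave 0.157, 0.147 and 0.177 reads for each read of *H2-Ab1* in the *Tarsl2*+/+ mice and 0.238, 0.243 and 0.202 in the *Tarsl2*-/- mice. All *Tarsl2*-/- mice thus had more *H2-DMa* for each *H2-Ab1* read, by a factor of 1.42 between the means. Against *H2-DMb1* its reads overlapped between the genotypes, at 1.06 to 1.45 and 1.18 to 1.92. The ratios were chosen after the values were seen, and their difference was not tested.

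*H2-DMb2* (ENSMUSG00000037548, chr17:34143307-34151553, + strand) encodes a second H2-DM β chain. It had 54, 14 and 48 reads in the *Tarsl2*+/+ mice and 17, 19 and 24 in the *Tarsl2*-/- mice, so mouse 584 lay below every *Tarsl2*-/- mouse. Its log2 fold change of -0.95 (standard error 0.439) became -0.57 without *Tarsl2*+/+ mouse 583 and -1.36 without mouse 584. The transcripts of *H2-DMb1* and *H2-DMb2*, of 1404 and 1424 bases, were 93.9% identical over 1255 aligned bases, with an identical run of 221 bases, and reads from such stretches could be counted on either gene. The split between these 2 genes is therefore uncertain.

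*Ciita* (ENSMUSG00000022504, chr16:10488178-10527564, + strand), the class II transactivator, was barely detected. It had 31, 10 and 15 reads in the *Tarsl2*+/+ and 6, 8 and 7 reads in the *Tarsl2*-/- mice. Every *Tarsl2*-/- mouse lay below every *Tarsl2*+/+ mouse in CPM, although mouse 584, at 0.531 CPM, was close to mouse 589, at 0.499 CPM. The log2 fold change was -1.40 (standard error 0.508) with all mice and -0.76 (0.486) without mouse 583, which alone held more reads than the 3 *Tarsl2*-/- mice together. *Ciita* overlaps *Dexi* on the opposite strand, which had between 516 and 616 reads. The paper names a stranded library kit, but the strand setting of the counting is not given in the sources used here. If strand was ignored in counting, a part of these few reads may belong to *Dexi*.

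Of the 8 genes, 5 passed an adjusted p of 0.05 and were lower, namely *Cd74*, *H2-Aa*, *H2-Ab1*, *H2-Eb1* and *H2-DMb1*, where 1.37% of all tested genes were called lower and 2.27% in either direction by the quasi-likelihood test of edgeR, adjusted after Benjamini and Hochberg. Every *Tarsl2*-/- mouse lay below every *Tarsl2*+/+ mouse in 7 of the 8, and in 12.0% of all tested genes. Nothing is read from these counts, because the set was chosen on this contrast. The median log2 fold change of the 8 was -1.23, against 0.0025 over all tested genes, and -1.0 without mouse 583. With 1 library left out, between 4 and 7 of the 8 were past the threshold, and *H2-DMb1* was so in only 2 of the 6 fits.

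Per kilobase of gene length, the order of the mean levels was the same in both genotypes. In *Tarsl2*+/+ muscle it ran from *Cd74* at 63.7 ± 2.40 RPKM (reads per kilobase, scaled by library as CPM, SD, n = 3) through *H2-Eb1* at 52.0 ± 6.52, *H2-Ab1* at 39.1 ± 7.47 and *H2-Aa* at 30.6 ± 3.37 to *H2-DMa* at 6.28 ± 1.46 and *H2-DMb1* at 5.49 ± 0.783. *H2-DMb2* at 1.25 ± 0.731 and *Ciita* at 0.199 ± 0.129 came last. In *Tarsl2*-/- muscle *Cd74* had 26.9 ± 3.58 and *Ciita* 0.0745 ± 0.0178 on the same scale. Across the *Tarsl2*+/+ mice the range of *Cd74* stood clear of that of *H2-Eb1*. The ranges of *H2-Eb1* and *H2-Ab1*, of *H2-Ab1* and *H2-Aa*, and of *H2-DMa* and *H2-DMb1* overlapped. Within each mouse of either genotype, however, *H2-Eb1* lay above *H2-Ab1* and *H2-Ab1* above *H2-Aa*. *H2-DMa* lay below *H2-DMb1* in mouse 584, at 4.6 against 4.79 RPKM.

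The remaining class II chains were at or near the edge of detection, and most of their reads came from 1 mouse. *H2-Ob*, the β chain of H2-O, a modulator of H2-DM known from B cells, had 90, 14 and 21 reads in the *Tarsl2*+/+ mice 583, 584 and 595 and 8, 8 and 9 reads in the *Tarsl2*-/- mice. It was the only 1 of 5 listed chains in the table with enough reads to be tested, and did not pass the test (log2 fold change -2.33, standard error 0.697, adjusted p = 0.101 by edgeR). Without mouse 583 its log2 fold change was -1.0. *H2-Oa*, its α chain, had 15, 4 and 1 against 1, 0 and 0 reads, and *H2-Eb2* had 15, 0 and 2 reads against none in the *Tarsl2*-/- mice, where 3 reads correspond to between 0.146 and 0.187 CPM. Mouse 583 had the most reads of all 3 chains.

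The same mouse had the most reads of defining B cell markers. *Ms4a1*, which encodes CD20, had 84 reads in mouse 583, against 2 and 7 in the other *Tarsl2*+/+ mice and 6, 0 and 10 in the *Tarsl2*-/- mice. *Cd79a*, a signalling chain of the B cell receptor, had 73, 1 and 22 against 6, 2 and 5 reads. *Ighm*, the most abundant gene of the B cell list, differed from these markers and had 84.8, 91.6 and 98.5 CPM against 50.7, 37.4 and 52.3 CPM.

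**Figure D2:**
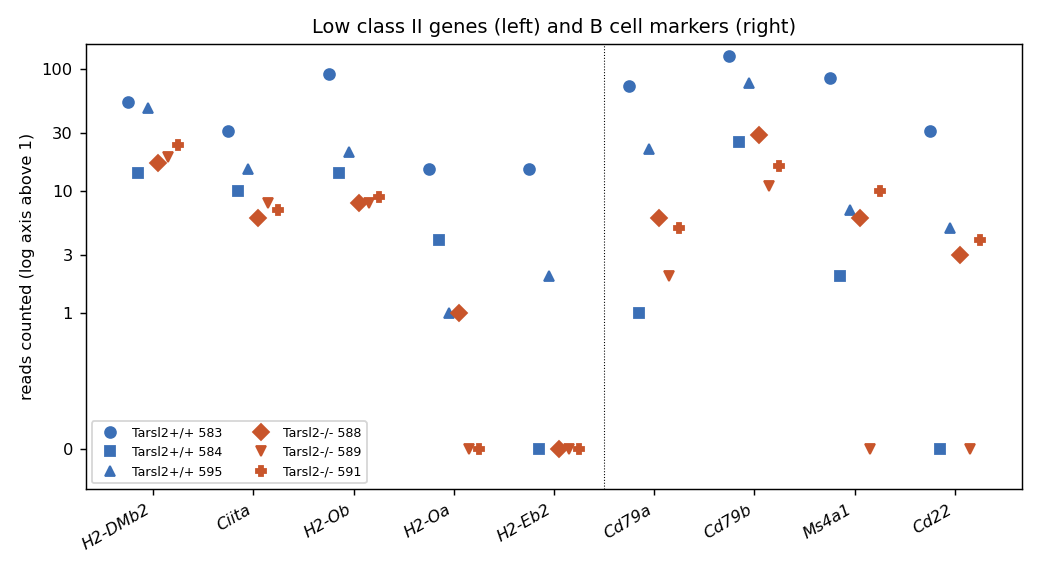
Reads counted in each mouse on 5 low class II genes and 4 B cell markers, on an axis that is logarithmic above 1, with *Tarsl2*+/+ mice in blue and *Tarsl2*-/- mice in orange. *Tarsl2*+/+ mouse 583, the blue circle, is the highest for all 9 genes, with 90 reads of *H2-Ob* and 84 of *Ms4a1*.

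Genes that prepare peptides and the invariant chain moved less. Of 17 listed genes of class II processing and turnover, 15 were tested, 2 fell, none rose and 13 did not pass the test, with a median log2 fold change of -0.25 and 14 of 15 negative. Over all 15075 tested genes, 1.37% were called lower and 7472 had negative values. *Ctss*, cathepsin S, which makes the last cuts in the invariant chain, had 51.3, 43.9 and 49.5 CPM in the *Tarsl2*+/+ and 29.1, 24.9 and 32.6 CPM in the *Tarsl2*-/- mice. It fell by 0.74 on the log2 scale (standard error 0.111, adjusted p = 0.00901 by edgeR) and passed the threshold in 5 of 6 fits with a library left out. *Ctsh*, cathepsin H, fell by 0.54 (standard error 0.104, adjusted p = 0.0235 by edgeR), but passed in only 1 of those 6 fits.

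The abundant members of the same list differed by less. The log2 fold changes were -0.34 for *Ctsl*, cathepsin L (adjusted p = 0.167 by edgeR), -0.25 for *Ctsb*, cathepsin B (adjusted p = 0.154), -0.12 for *Cd63*, a tetraspanin of late endosomes (adjusted p = 0.543) and -0.11 for *Cst3*, the cathepsin inhibitor cystatin C (adjusted p = 0.539). These genes are used by many cell types, muscle fibres included. Without mouse 583, none of the 15 passed the threshold, and the median was -0.22.

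The factors that bind class II promoters did not pass the test. *Rfx5*, a subunit of RFX, had 3.63, 3.88 and 2.36 CPM in the *Tarsl2*+/+ and 3.40, 4.30 and 3.55 CPM in the *Tarsl2*-/- mice, a log2 difference of 0.19 (standard error 0.224, adjusted p = 0.694 by edgeR). The other RFX subunits, *Rfxap* and *Rfxank*, had log2 fold changes of -0.02 (standard error 0.0942) and -0.06 (0.186), and the NF-Y subunits *Nfya*, *Nfyb* and *Nfyc* had -0.04 (0.129), 0.28 (0.11) and 0.14 (0.0954). *Creb1* had 0.05 (0.0936). The genotypes of *Rfx5* overlapped. Those of *Nfyb* did not, with 22.74, 23.43 and 19.9 CPM in the *Tarsl2*+/+ and higher values of 30.38, 24.95 and 25.08 CPM in the *Tarsl2*-/- mice. The mRNA of these factors is made in every cell of the tissue, so their level within leukocytes was not measured here.

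Over the whole list of 16 transcription regulators the median log2 fold change was -0.05, with 1 gene lower and none higher. Of all tested genes, 1.37% were called lower. The gene that fell was *Irf8*, a factor of macrophages, dendritic cells and B cells, with 11.7, 9.24 and 10.6 CPM in the *Tarsl2*+/+ and 7.30, 5.86 and 7.19 CPM in the *Tarsl2*-/- mice (log2 fold change -0.62, standard error 0.143, adjusted p = 0.0491 by edgeR). It passed in 1 of 6 fits with a library left out. *Spi1*, which encodes the myeloid factor PU.1, had -0.51 (adjusted p = 0.0798 by edgeR). Of the interferon-γ pathway that induces *Ciita*, *Ifngr1* had -0.29 (adjusted p = 0.116), *Ifngr2* -0.08 (adjusted p = 0.738) and *Jak1* -0.17 (adjusted p = 0.307 by edgeR). *Irf1* had -0.52 (adjusted p = 0.158), with every *Tarsl2*-/- mouse below every *Tarsl2*+/+ mouse, and *Jak2* had 0.02 (adjusted p = 0.926 by edgeR). None of these was past the threshold.

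**Figure D3:**
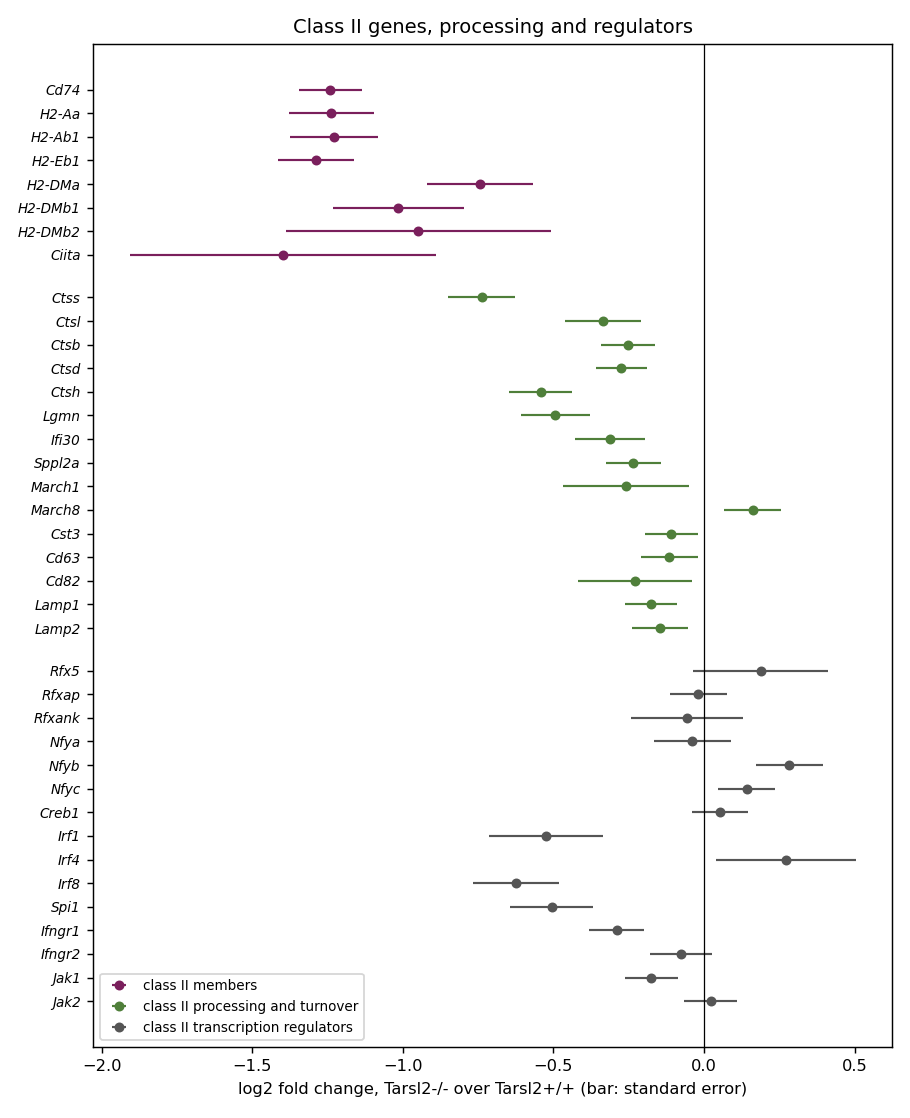
Log2 fold change (*Tarsl2*-/- over *Tarsl2*+/+) with its standard error for the 8 class II genes, 15 genes of processing and turnover and 15 of the 16 transcription regulators. The 4 points at the top, *Cd74* and the classical chains, lie between -1.29 and -1.23, while the medians of the other lists are -0.25 and -0.05.

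Genes that act beside class II molecules were set against them, where 1.37% of all tested genes were called lower. Of 17 interferon-γ responsive genes, *Iigp1* and *Irgm2*, both immunity-related GTPases, fell (adjusted p = 0.0266 and 0.0308 by edgeR), and the list's median log2 fold change was -0.46. Of 19 genes of MHC class I presentation, *B2m*, the light chain of class I molecules, and *Psmb9*, an immunoproteasome subunit, fell (log2 fold changes -0.48 and -0.64, adjusted p = 0.0195 and 0.0241 by edgeR), with a median of -0.41. Without mouse 583 none of either list passed, nor without mouse 588, and the interferon-γ calls were also lost without mouse 595 or mouse 589. None of the 6 tested costimulatory genes passed, and *Cd86* differed by -0.53 on the log2 scale (adjusted p = 0.0814 by edgeR). The medians of these lists lay nearer to 0 than that of the 8 class II genes, a difference that was not tested and that the choice of the 8 favoured.

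Of the 8 genes, 6 lie on chromosome 17 in the MHC, so their neighbours were examined from 200 kb before *H2-DMa* to 200 kb after *H2-Eb1* (chr17:33935182-34516199). Of 53 genes there, 26 were tested, and 20 of these were not in the set. Among the 20, 1 fell, *Psmb9*, none rose, 10 had negative values, and the median log2 fold change was 0.0004. Of all tested genes, 1.37% were called lower. Between *H2-DMb1* and *H2-Ab1* lay 5 of the 20, all with negative values. *Psmb9* had -0.64 (standard error 0.123), *Psmb8*, another immunoproteasome subunit, -0.48 (0.125), the peptide transporter genes *Tap1* and *Tap2* -0.43 (0.194) and -0.05 (0.148), and *H2-Ob* -2.33 (0.697). Beyond the set, *Btnl2* had -0.92 (0.258) on one side and *Brd2* 0.25 (0.0788) on the other. Farther out on the side of *Brd2*, values of both signs occurred, such as -0.98 (0.332) for *Col11a2*, 0.31 (0.0782) for *Rxrb* and -0.41 (0.14) for *H2-K1*. *Psmb9* did not pass without mouse 583, 595, 588 or 589. *Cd74* and *Ciita*, on chromosomes 18 and 16, had fold changes like those of the chromosome 17 genes.

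**Figure D4:**
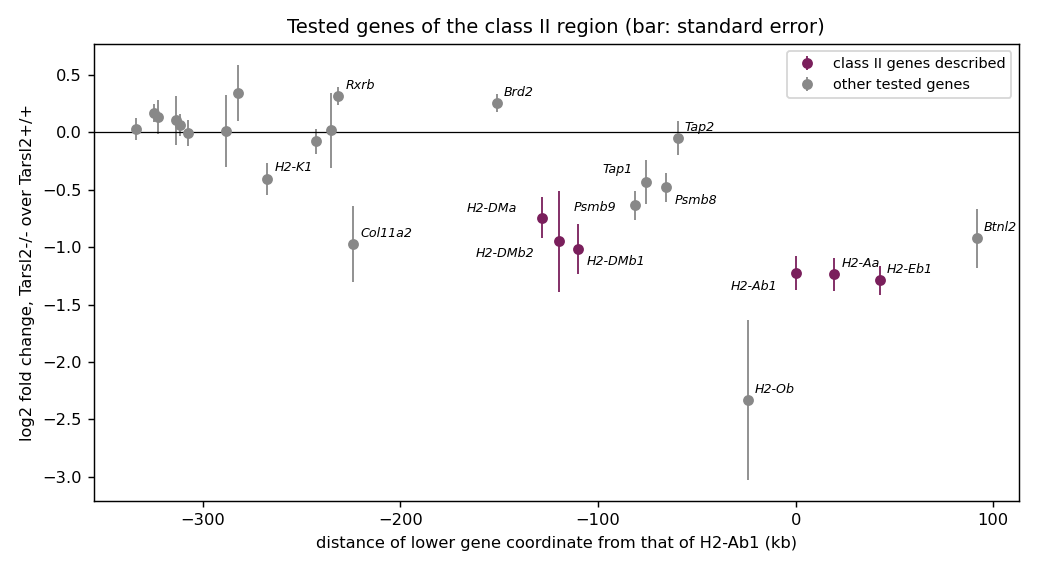
Log2 fold change with its standard error of the 26 tested genes of the class II region, by the distance in kb of each gene's lower coordinate from that of *H2-Ab1*. The 6 class II genes of the set lie between -1.29 and -0.74, and the 5 other genes between *H2-DMb1* and *H2-Ab1* lie between -2.33 and -0.05.

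Markers of the cells that make class II molecules moved with the set. Over all 15075 tested genes, 1.37% were called lower and 7472 had negative values. Of 14 genes expressed by leukocytes in general, all 14 had negative log2 fold changes with a median of -0.60, and 4 fell, *Laptm5*, *Tyrobp*, *Cd53* and *Cd48*. Their summed level was between 333.5 and 431.9 CPM in *Tarsl2*+/+ and between 231.9 and 280.7 CPM in *Tarsl2*-/- mice, and no gene of the list passed without mouse 583, 595, 588 or 589. Of 20 macrophage genes, all 20 were negative with a median of -0.57, and 9 fell, with summed levels of 2070 to 2353 against 1283 to 1567 CPM. Among the 9, the lowest log2 fold changes were -1.21 for *Cd209g* and -1.17 for *Cd209f*, near those of the classical chains. *Adgre1* had -0.56 and *Csf1r* -0.53. *Cd209g* and *Cd209f* passed in all 6 fits with a library left out, *Csf1r* in 3 and *Adgre1* in 1. Without mouse 583, 588 or 589, 4 of the 20 passed. The macrophage gene *Lyve1*, at -0.12 (adjusted p = 0.477 by edgeR), did not pass.

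Dendritic and B cell lists were less well measured, and the share of all tested genes called lower was again 1.37%. Of 13 dendritic cell genes, 10 were tested and 1 fell, *Cd209a* (log2 fold change -1.31, standard error 0.274, adjusted p = 0.034 by edgeR), with a list median of -0.41 and summed levels of 125.1 to 146.9 against 98.5 to 113.6 CPM. *Cd209a* passed in 1 of 6 fits with a library left out, and no gene of the list passed without mouse 583, mouse 595 or any single *Tarsl2*-/- mouse. The defining genes *Itgax* and *Flt3* had too few reads to be tested, and *Zbtb46* had a log2 fold change of -0.03. Of 11 B cell genes, 4 were tested and 1 fell, *Ighm*, the μ heavy chain, with 1450, 1725 and 1877 reads in the *Tarsl2*+/+ and 910, 599 and 1077 reads in the *Tarsl2*-/- mice (log2 fold change -0.97, standard error 0.124, adjusted p = 0.00346 by edgeR). *Ighm* passed in all 6 fits with a library left out, and unlike *Ms4a1* it was not highest in mouse 583. *Ms4a1*, *Pax5*, *Cd22*, *Blk* and *Fcmr* were at 0 in at least 1 library. Other cell types also differed. All 7 erythrocyte genes had negative log2 fold changes with a median of -0.87, none past the threshold, and mouse 595 had the highest summed level at 10390 CPM, against group means of 7453 and 4368 CPM. Of 10 skeletal muscle markers, 4 rose, *Ckm*, *Myh1*, *Actn3* and *Des*, with a list median of 0.18, and none of the 10 passed without mouse 583. Of all 15075 tested genes, 135 were called higher.

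The class II genes were lower also in relation to these lists. The 8 genes were chosen on this contrast, which favoured a larger difference than in the lists, so the ratios are a description. The log2 ratio of the summed CPM of the 8 genes to that of the 14 leukocyte genes was -0.42, -0.38 and -0.35 in the *Tarsl2*+/+ mice 583, 584 and 595, and -1.07, -1.07 and -0.95 in the *Tarsl2*-/- mice 588, 589 and 591. The genotypes were separate, with a difference of means of -0.65. It was -0.57 against the macrophage list and -0.89 against the dendritic cell list, again without overlap. Single genes weighed heavily in these sums as well. In *Tarsl2*+/+ muscle *Lyz2* gave 910.9 of the mean 2228 CPM of the macrophage list, and *Cd24a* 55.95 of the mean 133.3 CPM of the dendritic cell list. The log2 fold changes of *Lyz2* and *Cd24a* were -0.89 and -0.15. Against the B cell list, most of whose reads were those of *Ighm*, the difference was -0.11 and the genotypes overlapped. Mouse 583 had the lowest ratio to the leukocyte list among the *Tarsl2*+/+ mice. What part the number and kind of leukocytes had in the class II levels was not tested.

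**Figure D5:**
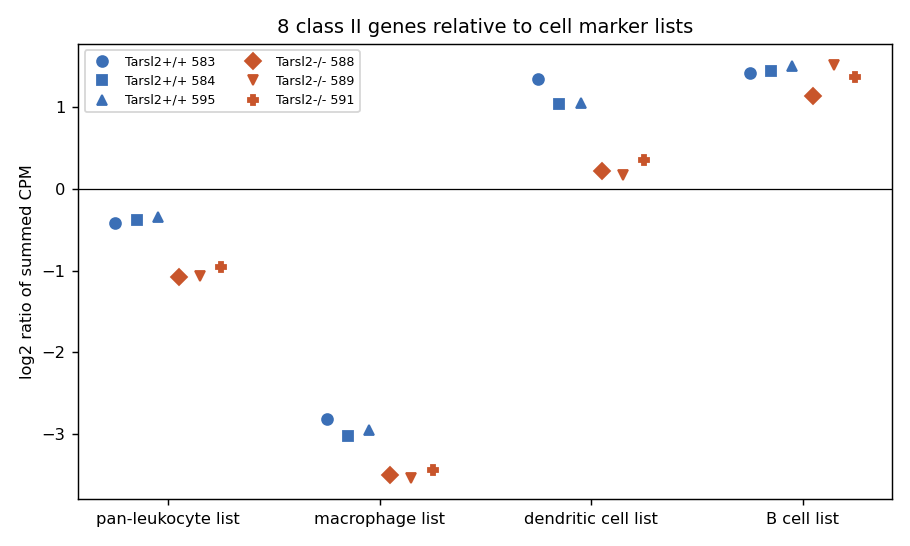
Log2 ratio of the summed CPM of the 8 class II genes to that of 4 cell marker lists in each mouse, with *Tarsl2*+/+ mice in blue and *Tarsl2*-/- mice in orange. The genotypes are separate for the first 3 lists, with differences of -0.65, -0.57 and -0.89, and overlap for the B cell list. The choice of the 8 genes on this contrast favoured such a separation.

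Among all tested genes outside the set and with an average log2 CPM of 1 or more, the 5 whose log2 CPM followed the mean standardized level of the 8 genes most closely over the 6 libraries were *Selenop* (r = 0.996), *Dnajc3* (r = 0.991), *Arhgap15* (r = 0.988), *Epsti1* (r = 0.986) and *Gcnt1* (r = 0.985). These values describe 6 libraries that share the difference between genotypes. *Selenop* encodes a secreted selenium carrier, *Dnajc3* a cochaperone of the endoplasmic reticulum and *Arhgap15* a Rac GTPase-activating protein of leukocytes. Their own log2 fold changes were smaller than those of the classical chains, at -0.44 for *Selenop*, -0.15 for *Dnajc3* and -0.75 for *Arhgap15*.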

How the data were processed

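RNA of muscle from 3 *Tarsl2*+/+ and 3 *Tarsl2*-/- mice was sequenced, 1 library per mouse. The authors deposited a table of raw read counts for each gene, with gene coordinates and lengths. The paper's methods name HISAT2 and mm10, whereas the submitters' processing notes name Bowtie 0.12.2 and mm8, and the coordinates are those of GRCm38. The counting tool, annotation and strand setting are not given in the sources used here. The table's 448 unannotated regions were kept.

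Mice were assigned to genotypes from the sample titles. Genes passing filterByExpr (minimum count 10, minimum total 15) were scaled by TMM and tested with the quasi-likelihood test of edgeR 4.0.16 in R 4.3.3, with genotype as the only term and Benjamini-Hochberg adjustment over all 15075 genes at a threshold of 0.05. Standard errors were obtained from each gene's log2 fold change and F statistic (their ratio, with F under a square root). The common biological coefficient of variation was 12.1%. P-values set the difference between genotypes against the spread between these mice, which edgeR moderates across genes. At the depth of these libraries 3 counts correspond to between 0.146 and 0.187 CPM, which covers counting error only. Log2 CPM used a prior count of 2.

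The 8 genes and the gene lists, written by hand, were chosen with earlier results of these data known. The genes named are the 8, the genes past the threshold and the most abundant others of each list, neighbours past the threshold and the 5 genes most like the set. *Cd79a* and *Ms4a1*, the RFX, NF-Y, CREB and interferon-γ pathway genes, the untested class II chains, *Spi1*, *Cd86*, *Lyve1*, *Zbtb46*, *Itgax*, *Flt3*, *Tap1*, *Tap2*, *Psmb8*, *Btnl2*, *Brd2*, *Col11a2*, *Rxrb* and *H2-K1* were named for their roles or position after their values were seen. Values of a few single genes of the lists are left out. Motifs were searched in RefSeq promoters (GRCm38.p6), and transcripts were aligned from GENCODE vM21. The procedure was tested on simulated data. Alternatives were DESeq2 1.42.0, limma-voom (limma 3.58.1), other scalings and filters, other marker lists and each library left out in turn.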

Additional observations from a re-analysis of the deposited data

How the results depend on the processing

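The 8 class II genes kept a negative median log2 fold change (-1.34 to -1.0 with 1 library left out) and 4 to 7 of them passed the threshold under every alternative run. Several of the genes named that were not past the threshold changed direction with 1 library left out. They ranged from -0.0072 to 0.33 for *Rfx5*, -0.15 to 0.10 for *Rfxank*, -0.084 to 0.021 for *Rfxap*, -0.11 to 0.037 for *Nfya*, -0.0034 to 0.087 for *Creb1*, -0.022 to 0.081 for *Jak2*, -0.14 to 0.15 for *Zbtb46* and -0.14 to 0.076 for *Tap2*. *Ciita*, at -1.40 with all mice, was -0.76 without *Tarsl2*+/+ mouse 583, and had no value when 10 counts were required in every library. The number of genes past the threshold, 342, was 671 with DESeq2 and 1437 without a filter on low counts, and 81 (without mouse 583) to 625 (without mouse 584) with 1 library left out. Of these, 207 were lower with all mice, 371 with DESeq2, 826 without the filter, and 50 to 383 with 1 library left out. DESeq2 after the edgeR filter, an alternative added after seeing the data, gave 719 genes, of which 409 were lower. Among the neighbours of the class II region, 1 passed in the main test, 4 with DESeq2, with or without that filter, 8 without any filter, and 0 to 4 with 1 library left out. The median of the transcription regulators, -0.05, ranged from -0.0997 (without mouse 584) to -0.0157. The class II level relative to leukocyte markers, -0.65, was -0.57, -0.89 and -0.11 with the macrophage, dendritic cell and B cell lists. Apart from fewer or more genes and mice entering a fit, the cause of these shifts was not tested. No paired analysis was possible because the labels give no litters or other pairing of mice between the genotypes. Depth limits *Ciita*, *H2-DMb2* and the H2-O genes, which had at most 90 reads in any library.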
